A study of Homo sapiens with 4 samples.

Results

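The genes described here are 10 genes of the immediate early FOS, JUN and EGR families, among 19881 protein-coding genes with a canonical start site. They are FOS, FOSB, FOSL1, FOSL2, JUN, JUNB, JUND, EGR1, EGR2 and EGR3. EGR4 is not among them, so the EGR family here means EGR1, EGR2 and EGR3. The 10 were chosen by symbol in GENCODE 44 on hg19. Each was given the new MBD-seq peaks that touch its gene record or the 1000 bp on either side of its canonical start site. By this rule they hold 12 of the 12864 new peaks that were listed for wild type. The HEK293 cells, an established human embryonic kidney line, made up 4 groups of 1 library each. Cells of 3 groups were transiently transfected with dCas9-SunTag, which is a catalytically dead Cas9 with a chain of peptide epitopes, with an sgRNA against the CpG island of ISG15, and with Ab-3A3L. Ab-3A3L is an antibody fragment against the epitope that carries the catalytic domain of DNMT3A joined to DNMT3L, and its DNMT3A part was wild type (WT), K844E or R887E. The transfected cells were sorted by FACS after 3 days for those that carried all plasmids, and the fourth group was untreated. Only the WT peak list was used, and the untreated, K844E and R887E libraries were not analysed here. The list holds no measure of expression, so the cell line was not checked against marker genes.

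Immediate early genes are transcribed within minutes of a growth factor or stress signal, before any new protein is made. FOS and JUN proteins pair through leucine zippers to form AP-1, a dimer that binds the TRE and CRE elements, and the EGR proteins bind a GC-rich site with zinc fingers. Many of the genes are themselves switched on by SRF bound to CArG boxes and by CREB bound to CREs just upstream of the start site, and most have a CpG island there, which is free of methylation in most cells.

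In MBD-seq, sonicated DNA is captured by MBD2, a protein that binds methylated CpGs, so a region gives more fragments when more of its CpGs carry methyl groups. A new peak is a region that passed the threshold of the authors against untreated cells. The absence of a peak is therefore not a measurement of methylation, and a region with signal in the control needs more fragments to be listed. The fold is the authors' enrichment at the summit, the highest point of a peak. The number of fragments at the summit and the background rate, in fragments, were computed back from the listed fold and p-value. The list gives no library totals. Its peaks had a median of 18 fragments at the summit over a median background rate of 0.966. The median fold was 7.45 and the median width 498 bp. The 8608 peaks at coding promoters had a median fold of 8.07, a median width of 572 bp and a median of 10.6 CpGs per 100 bp. Each condition has 1 library, so the spread between replicates is unknown and no test was run. Ranges in brackets are 95% exact Poisson intervals of the fragments, carried over to the fold, and cover counting error only. More methylated molecules and more methylated CpGs per molecule cannot be told apart by the fragments.

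A new peak was listed at 9 of the 10 genes, all but FOSB. Over all coding genes, 48.1% had a peak by the same rule. Within 1000 bp of the canonical start site, 8 of the 10 had a peak, all but FOSB and EGR3, against 42.1% of the 19881 coding promoters. The promoters of the 10 genes are rich in CpGs, with 117 in the window of FOSB to 241 in that of JUND, and the share of promoters with a peak rises with this number. Among the 8042 coding promoters in the same 4 of 10 classes of CpG number, 73.1% had a new peak. The 8 of 10 therefore stand near the share of promoters with as many CpGs. The 12 peaks had a median fold of 7.87, a median width of 771 bp and a median of 10.4 CpGs per 100 bp. Their medians of fold and CpG density were thus close to those of all promoter peaks. The 12 include peaks of EGR2 and EGR3 outside the promoter window, and the 10 at promoters had a median fold of 9.09. The median also joins unlike families, with 4.40 over the EGR peaks and 12.4 over the FOS and JUN peaks.

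**Figure D1:**
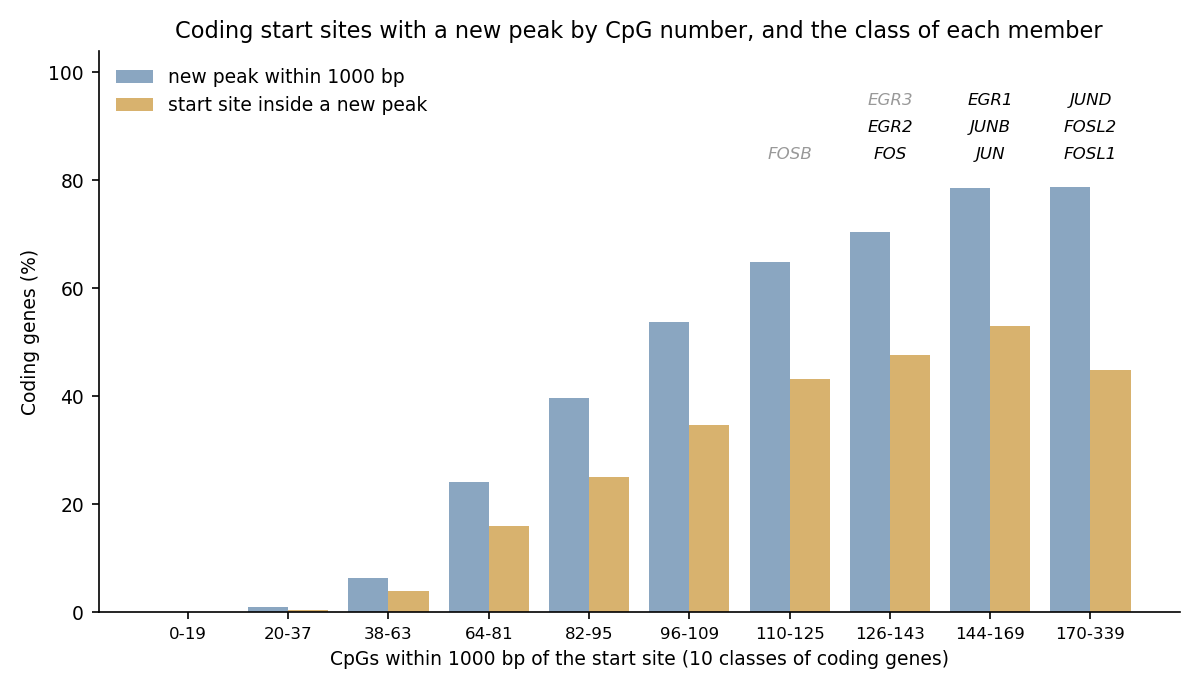
Percent of coding genes with a new peak within 1000 bp of the canonical start site (blue bars) and with the start site inside a new peak (yellow bars), in 10 classes of the number of CpGs in this window. The name of each FOS, JUN and EGR gene stands over its class, in grey where no peak lies within 1000 bp, and the blue bars over which names stand reach 64.8% to 78.7%, against 0.0512% in the class with 0 to 19 CpGs.

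The peaks lay mostly in the transcribed part of the genes. Of the 12 summits, 10 were downstream of the canonical start site, 5 of them in a 5′ untranslated region, 3 in an intron and 2 in a coding exon, and the other 2 were upstream of EGR2. A downstream summit is common. Over all 8364 coding promoters with a peak, the summit of the highest promoter peak had a median position of 165 and a lower quartile of -57. The regions of the summits were not counted over all coding genes. The start site itself was inside a peak in FOS, FOSL1, FOSL2, JUNB and EGR1, which are 5 of the 8 genes with a promoter peak. Among all coding promoters with a peak, 64.4% had the start site inside one.

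**Figure D2:**
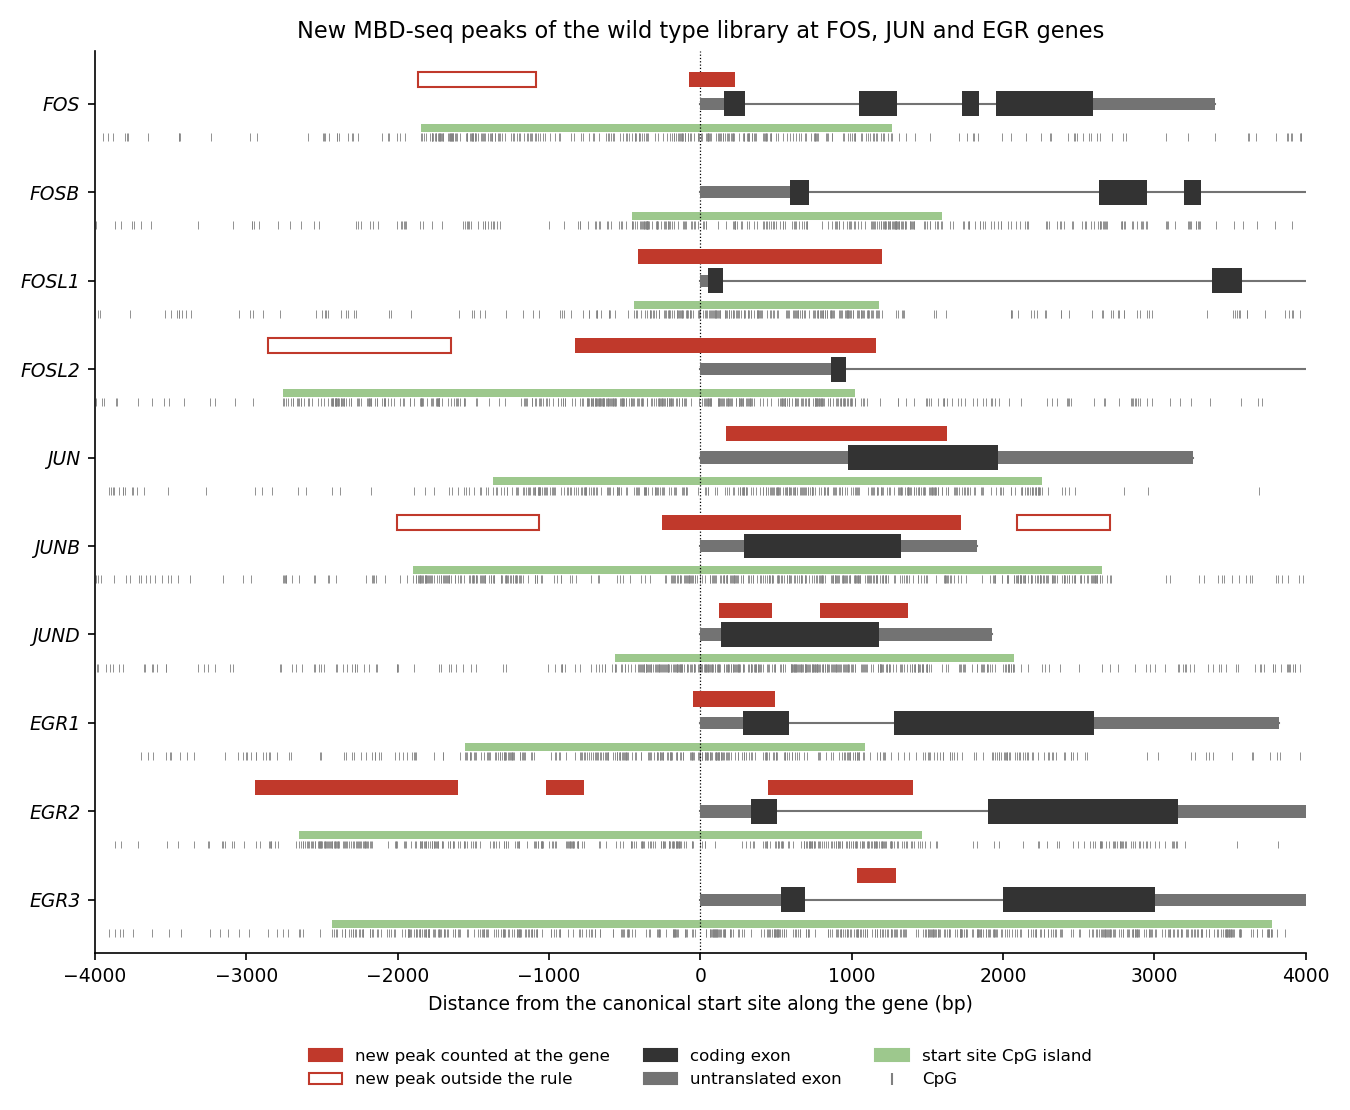
Map of the 10 genes drawn to scale along the direction of transcription, with distance in bp from the canonical start site on the x axis. Filled red boxes are the new peaks counted at a gene, open red boxes are new peaks outside the rule, dark and grey boxes are coding and untranslated exons, green bars are the start site CpG islands and ticks are CpGs. FOSB has no red box, and the boxes of FOSL1, FOSL2 and JUNB cover most of their island.

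Exact matches to the consensus letters of such upstream elements were searched in the 500 bases before each start site, on both strands. Elements that differ from these letters were not counted, so the search does not show where all elements of a gene lie. Matches to the CArG box, by its consensus of CC and GG around 6 bases of A or T, numbered 10 and lay in 5 genes, FOS, FOSB, EGR1, EGR2 and EGR3. The CRE, TGACGTCA, matched at FOSB and JUND. The EGR site, GCGTGGGCG or GCGGGGGCG, matched at 3 overlapping positions before JUND, and the TRE, TGACTCA or its complement TGAGTCA, matched before none of the 10. None of these 15 matches lay in a new peak. Of the 15, 12 stand before genes with a promoter peak, 8 CArG boxes, 1 CRE and 3 EGR sites. These genes are FOS, JUND, EGR1 and EGR2, and matches before 1 gene share the position of its peaks. Within the 500 bases, the FOS peak begins only at -77 and the EGR1 peak at -49, and no peak of JUND or EGR2 enters them. The peaks of FOSL1, FOSL2 and JUNB reach 409, 829 and 251 bp upstream, but no match lies before these genes. Over all coding genes, 2.40% of these windows held a CArG box, 2.89% a CRE, 6.04% a TRE and 10.2% an EGR site. At all coding promoters with a new peak, 20.3% of the CArG matches, 49.8% of the CRE matches and 52.4% of the EGR matches lay in one. These shares count single matches and are not matched for where the peaks lie. A match is a description of the letters, and binding was not measured. The elements are given in hg19, 5′ to 3′ along the gene and with the matches in capitals, because they lie outside the listed peaks. The stretches shown hold 1 CpG at FOS, 3 at EGR2 and 8 each at FOSB, JUND and EGR1. MBD2 binds methylated CpGs, so a stretch with few CpGs can give little signal, and methylation at the elements was not measured. The box of FOS lies 228 bp upstream of the FOS peak. EGR1 has 5 boxes, and the 2 shown lie 47 and 25 bp upstream of its peak, which begins at position -49, inside the sequence shown.
FOS, chr14:75745201-75745250, plus strand: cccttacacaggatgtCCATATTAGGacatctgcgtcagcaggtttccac
FOSB, chr19:45970914-45971003, plus strand: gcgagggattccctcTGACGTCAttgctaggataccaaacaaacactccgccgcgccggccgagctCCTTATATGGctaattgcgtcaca
JUND, chr19:18392603-18392652, minus strand: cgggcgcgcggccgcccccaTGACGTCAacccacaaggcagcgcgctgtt
EGR1, chr5:137801048-137801147, plus strand: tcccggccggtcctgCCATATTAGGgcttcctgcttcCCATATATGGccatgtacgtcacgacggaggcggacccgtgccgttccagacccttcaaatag
EGR2, chr10:64576167-64576216, minus strand: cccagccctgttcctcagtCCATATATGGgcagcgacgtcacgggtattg

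Within the FOS family, which supplies the partners of JUN in AP-1, the peaks of FOSL1 and FOSL2 were wide and high, that of FOS was short, and FOSB had none. FOS, the founding member, lies on chromosome 14 with its start site at 75745531, and its peak at 75745454 to 75745760 covers 307 bp with 32 CpGs. The summit, 128 bp downstream of the start site in the 5′ untranslated region, had 15 fragments [8.40 to 24.7] over a background rate of 0.966. The fold of 8.14 [4.78 to 13.1] was higher than that of 58.6% of all peaks, while only 12.9% of the promoter peaks were narrower.

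The FOS peak also holds a sequence related to the sgRNA. The ISG15 target and this site are shown with the PAM in capitals, because FOS was the only one of the 10 genes with such a site. In the windows of the other 9, no NGG site with up to 6 mismatches was found. With positions numbered from 1 at the 5′ base of the guide, the FOS site differs by C10G, T11C, T13G and A15G. It begins 43 bp downstream of the start site and ends 66 bp before the summit. The paper's own search found many regions with as many mismatches in the genome. The share of all new peaks or promoters with such a site is not given here, so 1 of 10 has no background. Binding of dCas9 at this site was not tested.
ISG15 target, chr1:948878-948897, minus strand: gttcgctgcctctcagccgcCGG
FOS site, chr14:75745574-75745593, minus strand: gttcgctgcgccgcggccgcCGG

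FOSB, on chromosome 19 with its start site at 45971254, had no peak in its gene record or promoter, and the nearest peak was 17473 bp away. Its promoter holds 117 CpGs, the fewest of the 10, and falls in the class of 110 to 125 CpGs, in which 64.8% of coding promoters had a peak. Its start site island of 2054 bp holds 160 CpGs.

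FOSL1, which encodes FRA1, lies on the minus strand of chromosome 11 with its start site at 65667859. Its peak at 65666660 to 65668268 covers 1609 bp and 173 CpGs, from 409 bp upstream of the start site to 1199 bp downstream. It had 35 fragments [24.4 to 48.7] at the summit, the most of the 12 peaks, over a rate of 1.25, and a fold of 16.02 [11.3 to 22.1], higher than that of 96.9% of all peaks. The summit lies 974 bp downstream in the intron after the first exon. The 80 bases around it are shown with CpGs in capitals, as an example of the sequence under the strongest signal. They hold 12 CpGs, and a TRE in them, tgagtca, lies 22 bp from the summit. A further TRE match overlaps the start site, at positions -1 to 5. A TRE was found in 3.65% of all promoter peaks.
FOSL1 summit, chr11:65666846-65666925, minus strand: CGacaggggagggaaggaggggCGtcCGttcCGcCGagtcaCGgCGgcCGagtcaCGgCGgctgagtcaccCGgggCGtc

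FOSL2, which encodes FRA2, lies on chromosome 2 with its start site at 28615725. Its peak at 28614896 to 28616886 covers 1991 bp and 229 CpGs, from 829 bp upstream to 1161 bp downstream, and was wider than 99.0% of the promoter peaks. The summit, at 28616569 in the 5′ untranslated region, had 25 fragments [16.2 to 36.9] over the genome-wide rate of 0.611, which gave a fold of 16.1 [10.7 to 23.5]. The peaks of FOSL1 and FOSL2 differed by less than their counting intervals. FOSL2 also had a TRE match in its peak, at positions 4 to 10.

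All 3 genes of the JUN family, the core partners of AP-1, had a promoter peak, and their peaks reached into the coding sequence. Each of these genes has a single exon. Of the coding CpGs of the family, 257 of 328 lay in a peak, or 78.4%, against 35 of 209 in the FOS family (16.7%) and 18 of 233 in the EGR family (7.73%). The families differ in layout. JUN family coding sequence lies between positions 138 and 1969 from the start site, while it reaches 2593 in FOS, 3156 in EGR2 and 19587 in FOSL2. The shares were not matched for this distance, and none was computed over all coding genes. JUN, on the minus strand of chromosome 1 with its start site at 59249719, had a peak at 59248089 to 59249552, of 1464 bp and 147 CpGs. It begins 167 bp downstream of the start site and covers 810 bp of the 5′ untranslated region and 654 bp of coding sequence, with 63 of 83 coding CpGs. The summit at position 591 had 16 fragments [9.15 to 25.98] over a rate of 0.694 and a fold of 10.04 [5.99 to 15.9]. The peak did not reach the start site, and the 116 CpGs of the island from position -1368 to 166 lay in no peak.

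JUNB, on chromosome 19 with its start site at 12902300, was covered almost end to end. Its peak at 12902049 to 12904025 spans 1977 bp with 187 CpGs and takes in 251 bp upstream, 286 bp of 5′ untranslated region, the 1041 bp of coding sequence and 399 bp of 3′ untranslated region. All 105 coding CpGs lay in it. The summit, at position 128, had 22 fragments [13.8 to 33.3] over the genome-wide rate of 0.611, with a fold of 14.3 [9.18 to 21.3], higher than that of 93.6% of all peaks. A start site of a HOOK2 transcript lies in the same peak, so this peak is shared by the annotation of 2 genes.

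JUND, on the minus strand of chromosome 19 with its start site at 18392432, has the promoter with the most CpGs of the 10 and had 2 separate peaks in its single exon. The peak at 18391062 to 18391643, of 582 bp with 65 CpGs, had 25 fragments [16.2 to 36.9] over a rate of 1.09 and a fold of 12.4 [8.22 to 18.1] at position 1025. The peak at 18391958 to 18392308, of 351 bp with 45 CpGs, had 14 fragments [7.65 to 23.5] over a rate of 1.16 and a fold of 6.95 [4.01 to 11.3] at position 317. The intervals of the 2 folds overlap. Together they held 89 of the 140 coding CpGs. The stronger summit falls in the part of the gene that codes for the basic DNA-binding region and the leucine zipper, and the 80 coding bases around it are shown with CpGs in capitals. They hold 6 CpGs, against 12 at the FOSL1 summit.
JUND summit, chr19:18391368-18391447, minus strand: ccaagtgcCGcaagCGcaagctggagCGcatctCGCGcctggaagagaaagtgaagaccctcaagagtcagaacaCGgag

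The EGR genes encode zinc finger factors, and all 3 had new peaks, with a lower median fold than the peaks of the other families and with higher background rates throughout. EGR1, the most studied of them, lies on chromosome 5 with its start site at 137801168. Its peak at 137801119 to 137801661 covers 543 bp and 56 CpGs, from position -49 to 493. The summit at position 127 in the 5′ untranslated region had 18 fragments [10.7 to 28.4] over a rate of 3.32 and a fold of 4.40 [2.70 to 6.82], higher than that of 15.7% of all peaks. The peak ends in the first coding exon, where an EGR site lies at positions 482 to 490. EGR sites were also found in the peaks of FOSL1 (460 to 468), FOSL2 (543 to 551) and EGR2 (-984 to -976), and in 20.1% of all promoter peaks.

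EGR2, also known as KROX20, lies on the minus strand of chromosome 10 with its canonical start site at 64576126, and had 3 peaks, none of which held that start site. The peak at 64574720 to 64575679, of 960 bp and 97 CpGs, had its summit 699 bp downstream in the intron, with 23 fragments [14.6 to 34.5] over a rate of 2.16 and a fold of 7.60 [4.93 to 11.2]. A peak of 253 bp and 21 CpGs at 64576896 to 64577148, which is the shortest width in the list, had its summit at position -894, with 17 fragments [9.90 to 27.2] over a rate of 2.09 and a fold of 5.83 [3.53 to 9.13]. The third, at 64577726 to 64579066, lies outside the promoter window but in the gene record, which extends upstream through longer transcripts. It spans 1341 bp and 116 CpGs and had 28 fragments [18.6 to 40.5] over a rate of 6.94, with a fold of 3.65 [2.47 to 5.22]. Of the 6 annotated start sites of EGR2, those at positions -2293 and -2801 lie in this peak, and the others lie in none. The 80 bases around the intronic summit are shown with CpGs in capitals. They hold 13 CpGs, the most of the 3 summit sequences.
EGR2 summit, chr10:64575388-64575467, minus strand: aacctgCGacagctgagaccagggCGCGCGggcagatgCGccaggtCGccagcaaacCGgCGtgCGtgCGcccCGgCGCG

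EGR3, on the minus strand of chromosome 8 with its start site at 22550993, was counted through its gene body only. Its peak at 22549697 to 22549958, of 262 bp and 28 CpGs, begins 1035 bp downstream of the canonical start site, just outside the promoter window, with its summit in the intron at position 1275. The summit had 19 fragments [11.4 to 29.7] over a rate of 5.79, and the fold of 2.94 [1.83 to 4.51] was the lowest of the 12 peaks, higher than that of 5.92% of all peaks. Of its 5 annotated start sites, those at positions 1066 and 1256 lie in the peak.

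In the order of the highest fold of each gene, FOSL2 and FOSL1 came first, followed by JUNB, JUND, JUN, FOS, EGR2, EGR1 and EGR3. Over the 12 peaks, the fold intervals of all 11 pairs of neighbours in this order overlap. The EGR peaks ran from 2.94 to 7.60 in fold with a median of 4.40, and the FOS and JUN peaks from 6.95 to 16.1 with a median of 12.4. The EGR summits had 17 to 28 fragments and the FOS and JUN summits 14 to 35, so these ranges overlap. The background rates did not overlap, with 2.09 to 6.94 for the EGR peaks and 0.611 to 1.25 for the FOS and JUN peaks. Such rates are not particular to the EGR genes. Those of the EGR peaks were higher than the rates of 79.5% to 95.3% of all promoter peaks. The fold is the number of fragments plus 1 over the rate plus 1, so the lower folds of the EGR peaks stand beside higher background rates, while the numbers of fragments overlap.

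The rates could be traced to control reads. In the whole list, each recovered rate was genome-wide or, with 4 exceptions, a whole multiple of a control read worth 0.694, counted over 253, 1000 or 10000 bp and within 0.006 reads. Read this way, the rate at EGR1 rested on 189 control reads in 10000 bp, and those at the EGR2 promoter peaks on 123 and 119. At FOS the corresponding number was 55 and at FOSL1 71. The third EGR2 peak rested on 10 control reads in 253 bp, which is the fragment length by this reading, and EGR3 on 33 in 1000 bp. FOSL2 and JUNB stood at the genome-wide rate. That the control reads are those of the untreated library is an inference from the comparison the list is named for. What gives the EGR regions more control reads was not tested.

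The position of the peaks relative to the start site differed among the genes. The highest promoter peak had its summit more than 500 bp downstream in FOSL1, FOSL2, JUN, JUND and EGR2, 5 of 8, and within 500 bp downstream in FOS, JUNB and EGR1. The limit of 500 bp was chosen after the values had been seen. Among all coding promoters with a peak the share was 15.6%. Among the 1647 with a start site island in the length range of the 10 genes, 1624 to 6211 bp, it was 30.5%. The median island length was 2074 bp in the 1647 and 3370.5 bp in the 8 genes, so the range does not match the lengths. The median summit position was 645 bp for the 8 genes, 216 bp for the 1647 and 165 bp for all 8364. In these 1647, 55.6% of the start sites lay inside a peak, against 5 of the 8. At 200 bp downstream, 7 of the 10 genes were inside a new peak, against 72.5% of all coding genes with a promoter peak and 64.7% of the 1647. At 1150 bp downstream there were again 7, FOSL1, FOSL2, JUN, JUNB, JUND, EGR2 and EGR3, and the shares were 7.89% and 27.7%. At 50 bp upstream, the numbers were 4 of 10, 58.3% and 51.2%. The 10 genes include FOSB and EGR3, which have no promoter peak, while the shares are over genes that have one. Of the 8 genes with a promoter peak, 4 were inside a peak at 50 bp upstream and 7 at 200 bp downstream. At 1150 bp downstream, EGR3 is counted among the 7 but is not one of the 8. These positions were picked from the profile after it had been drawn, so they describe its shape only.

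**Figure D3:**
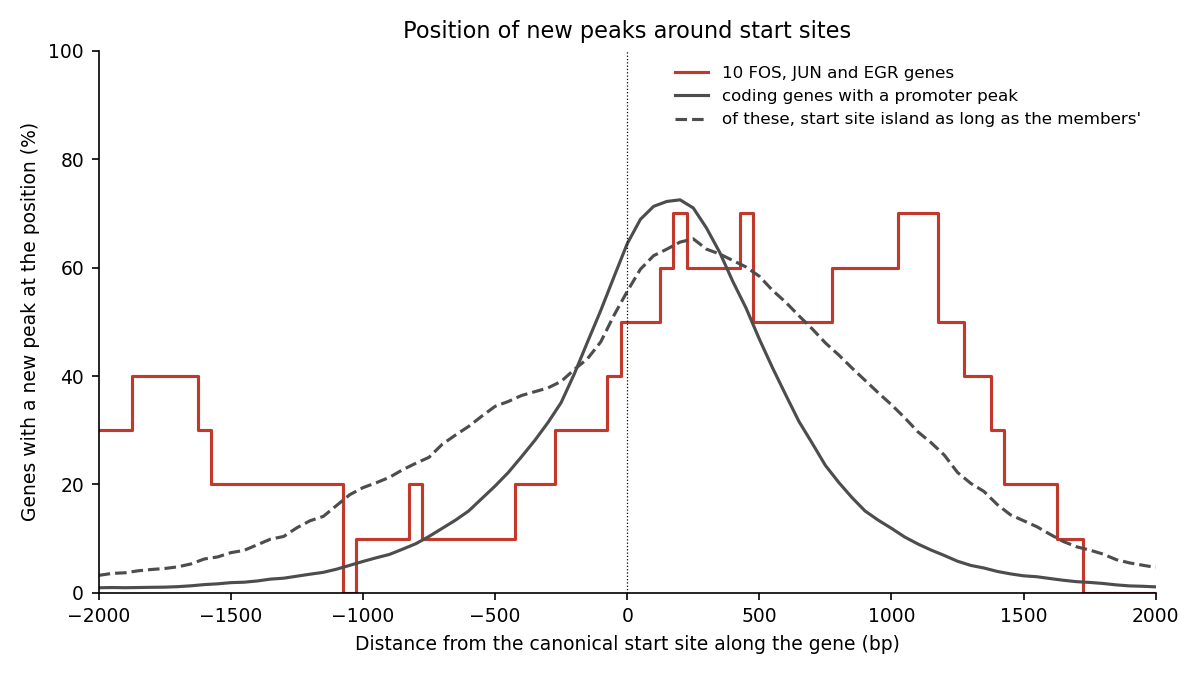
Percent of genes that are inside a new peak at each distance from the canonical start site, for the 10 FOS, JUN and EGR genes (red, steps of 10%), for all 8364 coding genes with a promoter peak (solid grey) and for the 1647 of these with a start site island of 1624 to 6211 bp (dashed grey). The red line includes FOSB and EGR3, which have no promoter peak, and stands at 70% at 1150 bp downstream, where the grey lines are at 7.89% and 27.7%.

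The start site of each of the 10 genes lies in a CpG island, and these islands are long, from 1624 bp at FOSL1 to 6211 bp at EGR3. The share of an island's CpGs inside a new peak ranged from 0% at FOSB and 5.48% at EGR3 to 98.3% at FOSL1. JUNB had 90.7% covered and FOSL2 88.9%, and EGR2 followed with 68.0%. JUN stood at 47.7%, FOS at 46.1%, JUND at 34.8% and EGR1 at 25.5%. Over the 9 islands with a peak, 53.2% of the CpGs lay in one, against 60.5% over the 8380 start site islands of coding genes with a peak. Upstream of the start site the share was 45.1%, against 51.8%, and downstream 59.8%, against 66.4%. These shares are not matched for island length. The median length was 3370.5 bp at the 8 genes with a promoter peak and 1077.5 bp at all coding promoters with a peak.

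Within an island the signal was often split. New peaks touched the island at 2 or more places in FOS, FOSL2, JUNB, JUND and EGR2, 5 of 10, against 8.48% of all start site islands of coding genes and 29.1% of the 2359 islands in the same range of length. Both shares include islands without any new peak. Of all 14525 start site islands, 8380 had a peak, against 9 of the 10 here, so the shares are not like for like. Within the range, the islands were not matched for length. Of the 7 stretches between neighbouring peaks, 6 held fewer CpGs per 100 bp than any of the 12 peaks, which ranged from 8.30 to 12.8. The stretch of 816 bp upstream of the JUNB peak had 2.33 CpGs per 100 bp and that of 1216 bp over the EGR2 start site 5.35. The exception was JUND, where the 314 bp between its 2 peaks held 15.9 CpGs per 100 bp. A further 690 bp of the JUND island, over the start site and upstream of it, had 14.3 CpGs per 100 bp and no peak. At EGR1 the 1503 bp of the island before the peak, which hold the CArG boxes, had 8.25 CpGs per 100 bp and no peak.

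Some islands carry further new peaks that the rule leaves out. FOS has a peak at 75743664 to 75744443, 1088 bp upstream of its start site, with 79 CpGs and a fold of 10.5 [6.34 to 16.4]. FOSL2 has one at 28612867 to 28614078, 1647 bp upstream, with a fold of 13.7 [8.69 to 20.6]. JUNB has one at 12900294 to 12901232, 1068 bp upstream, with a fold of 11.2 [6.89 to 17.4], and one at 12904394 to 12905010, 265 bp past its gene record, with a fold of 11.5 [7.32 to 17.3]. A peak 51 bp past the end of FOSL1, at 65657907 to 65659469 with a fold of 16.2, lies at the promoter of CCDC85B. Just inside the limit stands the short upstream peak of EGR2, at 770 bp from the start site, and just outside the promoter limit that of EGR3, at 1035 bp.

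Partners, regulators and other immediate early genes were set beside the 10. Of these 41 related genes, 31 had a new peak at the promoter and 22 the start site inside it, with a median highest fold of 8.26. The list was chosen with earlier results of these data known. In the CpG classes of the 10 genes, 30 of 32 related genes had a peak, against 73.1% of coding promoters, and in the other classes 1 of 9 had one. The 10 without a peak had 25 to 125 CpGs in the promoter window and the 31 with one had at least 91. Among the AP-1 partners, bZIP proteins that pair with FOS or JUN proteins, 3 of 7 had a peak, ATF3 with a fold of 11.8, BATF3 with 11.2 and JDP2 with 5.79, and BATF, BATF2, ATF2 and ATF7 had none.

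The EGR family relative EGR4 and the EGR co-repressors NAB1 and NAB2 all had a promoter peak. EGR4 had a fold of 2.62 [1.61 to 4.06] from 18 fragments over a rate of 6.25, values close to those of EGR3. NAB1 had a fold of 9.31 and NAB2 of 6.70. Of the 11 regulators that act upstream of immediate early genes, 8 had a peak. MAP2K1, a kinase of the ERK cascade, had the highest fold of these, 13.7, followed by the CREB gene CREB1 with 10.04 and the SRF cofactor MRTFB with 9.93. ELK1, MAPK3 and MAP2K2 had none. Of 20 other immediate early genes, 17 had a peak, led by CCN2, a secreted matrix protein, with a fold of 14.9, by IER5 with 13.7, by MYC with 13.7 and by the phosphatase gene DUSP1 with 12.4. IER3, ZFP36 and SGK1 had none. The lowest fold among the 17 was that of ARC, an immediate early gene of neurons, with 3.61 from 24 fragments over a rate of 5.93. Of the 31 related genes with a promoter peak, 9, EGR4 included, had a background rate at or over the lowest EGR rate of 2.09. Their folds ran from 2.62 to 7.97 with a median of 5.79. The 22 others had folds of 5.57 to 14.9 with a median of 9.98.

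For each of the 8 genes with a promoter peak, the coding gene with the most similar peak was sought over the ranks of 4 measures, the width, CpG number, fold and summit position, among 8364 genes. FOSL2 was nearest to PTPRJ, at a distance of 0.0116 on ranks scaled from 0 to 1, and FOSL1 to MYCL, at 0.0199. The peak of MYCL was 1748 bp wide with a fold of 15.9 and its summit 871 bp downstream. FOS was nearest to EIF2AK4 (0.0350), JUN to BIVM-ERCC5 (0.0347), JUNB to B3GALNT2 (0.0349), JUND to CPEB2 (0.0417) and EGR2 to UBTD1 (0.0438). EGR1 had the most distant neighbour, HES5, at 0.0573, with a fold of 3.29 against 4.40.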

How the data were processed

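Genomic DNA of HEK293 cells was sonicated and pulled down with GST-MBD2, and sequenced in 1 library per condition. Per the labels, the authors used FastQC, Bowtie2, deepTools and MACS2 with hg19, and versions and peak calling settings are not given in the sources used here. The deposited list of new peaks of the WT library gives each peak a score, a fold enrichment as a ratio, a p-value and a q-value, the latter as −log10 values, with a smallest −log10 q of 2.00. The deposited score was not used.

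The fragments k at the summit and the rate were solved for each peak from the fold, read as (k + 1)/(rate + 1), together with the upper Poisson tail beyond k, and gave the listed −log10 p within 0.000403. Positions were compared with GENCODE 44 on hg19. Of 20163 coding genes, 282 without a canonical start site were left out. CpG islands were rebuilt from unmasked sequence, as segments over 200 bp with at least 50% GC and an observed/expected ratio over 0.6. An overlap of 1 bp counted.

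No test was run, as there is 1 library. The genes named are the 10 members, up to 4 related genes per list with the highest fold, those without a peak, and the most similar gene for each member. The values of 1 related gene are not reported here. EGR4 and ARC are named for their low folds, after the values were seen. The members and lists were chosen with earlier results of these data known, and the limit of 500 bp and the positions of the profile that are printed were chosen after the values had been seen. The recovery of fragments and rate, the island search and the overlap count were tested on simulated data. The fragments were simulated by the formula that the recovery uses, so this does not test whether the authors' caller used it. The searches for motifs, sgRNA-like sites, control reads and similar peaks were not tested in this way. Scripts ran in Python 3.11.15 using numpy 2.4.6, scipy 1.17.1, pysam 0.24.0 and matplotlib 3.10.9.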

Additional observations from a re-analysis of the deposited data

How the results depend on the processing

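Of 45 alternatives, 35 stayed within 1.5 times the count reported or, for the median fold and the percent of CpGs, within the limits 4.86 to 12.2 and 48.5% to 52.2%. The 10 others came from the stricter peak thresholds, which leave fewer peaks by construction. The limits of the median fold are the mean Poisson limits of the middle peaks. Those of the percent are a 95% binomial interval over 2997 CpGs taken as independent. The CpGs of 1 peak share fragments, so this interval does not measure the precision of the share. With a fold of at least the median of the list, 5145 coding promoters, 17 related genes and 7 peaks at the 10 genes remained, and with a −log10 q of at least 10 the numbers were 4951, 20 and 7. Under either threshold the peaks of the 10 genes had a median fold of 12.4, and EGR1 and EGR3 lost their peaks, so that 7 genes had one. Any listed peak, also one outside the rule, was counted for the CpGs of the 10 start site islands. By this count 41.8% of them lay in a peak under either threshold, against 50.4% in the main analysis. With 2000 bp around the start site, 15 peaks counted. With the start sites of all transcripts, 9 genes had a promoter peak, the added one being EGR3, and 7 had a start site inside a peak, the added ones being EGR2 and EGR3. No paired analysis was possible because each condition has a single library. Precision is limited by 14 to 35 fragments at the summits and by the absence of replicates.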
